A study of Caenorhabditis elegans with 8 samples.

Results

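F-box genes of the subfamilies fbxa, fbxb and fbxc were compared between ercc-1 mutant and wild-type Caenorhabditis elegans. The members were all genes that the array's annotation names fbxa, fbxb or fbxc with a number and that had a probe set of their own. Where a gene had more than 1, its probe set was chosen by the highest mean signal over the 8 arrays, a measured value that does not use the difference between the groups. There were 310 of them, 171 fbxa, 95 fbxb and 44 fbxc genes, among 17118 genes measured in this way. The study hybridised total RNA to 8 one-colour Affymetrix arrays, 4 with worms labelled ercc-1 and deficient in nucleotide excision repair, and 4 with wild-type N2, the strain in whose background the mutant stands. Both groups were of mixed stage and ate Escherichia coli HT115(DE3) with the plasmid pL4440 for 3 to 4 days. The comparison belongs to a study of how DNA repair pathways guard against replicative ageing. The labels name no allele and no culture for each replicate, so the p-values rest on a spread between arrays that may be technical.

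F-box proteins are the substrate-binding subunits of SCF ubiquitin ligases. The F-box motif binds a Skp1 protein, which ties the subunit to the cullin CUL-1 and a RING protein, while the rest of the F-box protein selects the target that will be ubiquitylated. Caenorhabditis elegans carries far more F-box genes than vertebrates or flies, most of them in young clusters of near relatives whose targets are unknown. The fbxa proteins commonly join the F-box to an FTH domain, named after its presence in FOG-2, a protein that lets the hermaphrodite germline make sperm. Some members act in the intracellular pathogen response, a set of genes induced by microsporidia and by a virus that infects the intestine.

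One member rose and a pair fell in the mutant: fbxa-192 was 2.12-fold higher, fbxb-97 was 1.51-fold lower and fbxa-135 was 1.36-fold lower. The other 307 did not pass the test. A member was called where the adjusted p over all probe sets was under 0.05 (limma, two-sided), and every difference is a log2 value, mutant minus wild type. Of all 17118 genes, 0.532% were called higher and 0.14% lower, against 1 and 2 of the 310 members (0.323% and 0.645%). The 3 calls are too few to set these shares against each other.

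The signal of fbxa-192, on chromosome V, was 8.65, 8.85, 8.82 and 8.74 (log2) on the mutant arrays, in order of replicate, and 7.71, 7.80, 7.65 and 7.57 on the wild-type arrays. Every mutant array lay above every wild-type array, with a gap several times the spread inside either group. The means were 8.77 ± 0.090 and 7.68 ± 0.097 (SD, n = 4 each), a log2 difference of 1.08 (SE 0.078, 95% confidence interval 0.91 to 1.26, limma adjusted p = 0.000442). It was the single member with a difference of at least 2-fold, against 67 of all genes. The call held in all 8 fits that left out 1 array, with differences from 1.04 to 1.12 and adjusted p from 0.00122 to 0.00633. The protein it encodes is known here only as an F-box A protein, and its substrate is not given in the sources used here.

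The signal of fbxb-97, on chromosome II, was 5.53, 5.64, 5.73 and 5.82 on the mutant arrays and 6.28, 6.26, 6.29 and 6.26 on the wild-type arrays. The groups did not overlap, and the wild-type arrays lay close together, with an SD of 0.015 against 0.124 on the mutant arrays. This is a log2 difference of -0.59 with an SE of 0.076, a 95% confidence interval of -0.76 to -0.42 and limma adjusted p = 0.0122. Leaving out any 1 wild-type array ended the call (adjusted p from 0.0599 to 0.0641) while the difference stayed between -0.60 and -0.59; the call held without any 1 mutant array.

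The signal of fbxa-135, on chromosome V, was 4.41, 4.36, 4.49 and 4.51 on the mutant arrays and 4.98, 4.89, 4.92 and 4.75 on the wild-type arrays. Here too all mutant arrays lay below all wild-type arrays. This is a log2 difference of -0.44 with an SE of 0.075, a 95% confidence interval of -0.61 to -0.27 and limma adjusted p = 0.0375. It was the weakest of the 3 calls and held in 1 of the 8 fits that left out an array, that without mutant replicate 4. It also ended after quantile normalization (adjusted p = 0.0654), with probe sets of possible cross-matches left out (0.0620) and with a trended robust variance (0.164, limma throughout). Both members that fell were in the dimmest 25% of genes by mean signal, below 6.43, where the background level of the arrays is not known.

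**Figure D1:**
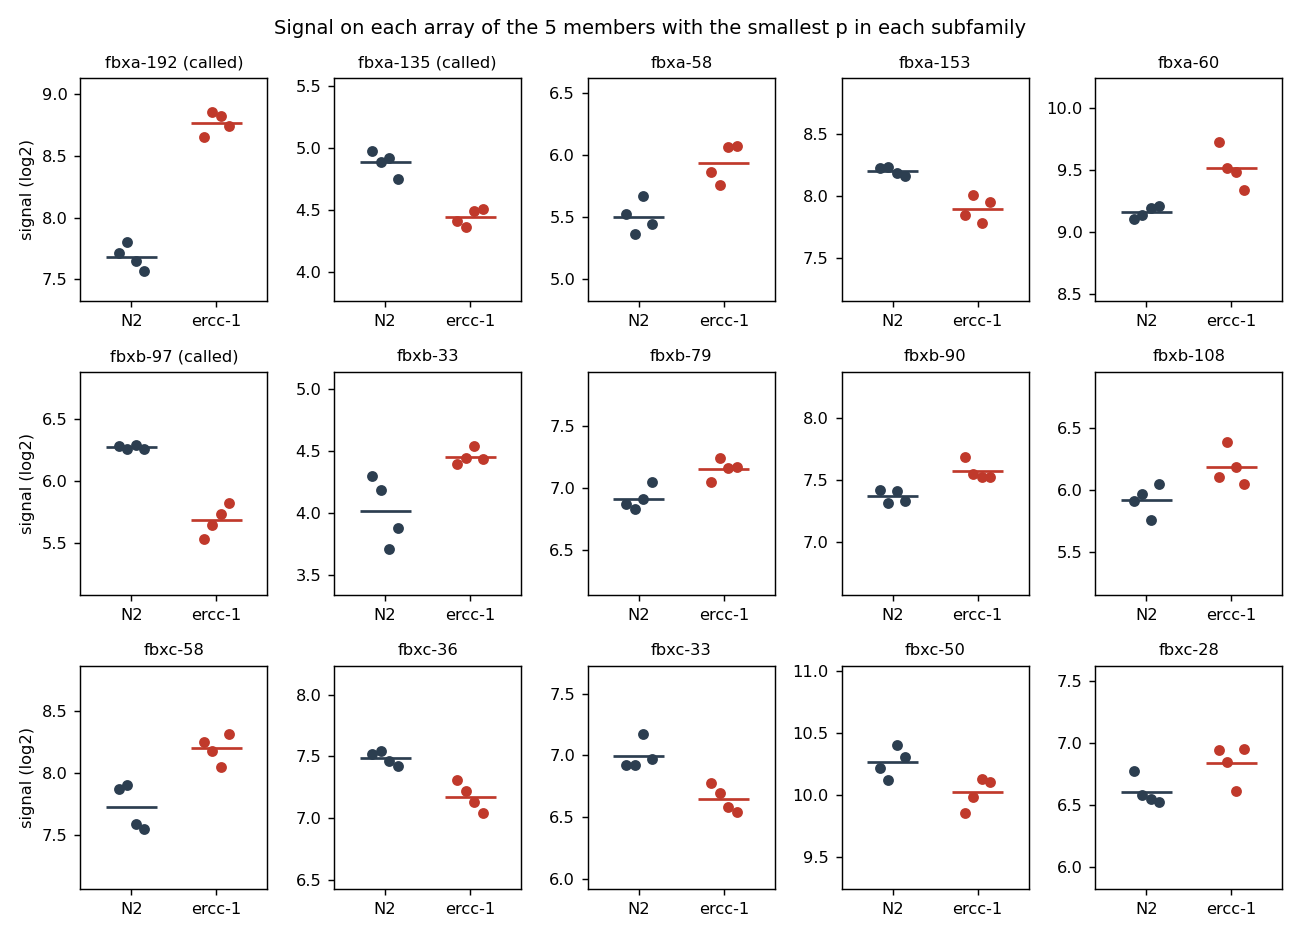
Signal (log2) on each array for the 5 members with the smallest p in fbxa (top), fbxb (middle) and fbxc (bottom). Points are arrays (n = 4 per group), lines are group means, and all panels span the same range of log2 units; fbxa-192 shows the widest separation, and fbxb-97 the tightest wild-type group.

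Members had dim probe sets. The mean signal over the 8 arrays had a median of 6.45 in fbxa, 6.20 in fbxb and 6.65 in fbxc, against 7.46 over all genes. In fbxa 83 of 171 members lay in the dimmest 25% of genes, in fbxb 58 of 95 and in fbxc 19 of 44, so that over the family 51.6% did. Probe sets differ in how well they bind, so these are signals of probe sets and not amounts of transcript. No member was listed at 0 on any array. The replicate spread of the members was like that of other genes: their median SD was 0.150 on the mutant and 0.120 on the wild-type arrays, against 0.151 and 0.111 over all genes.

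**Figure D2:**
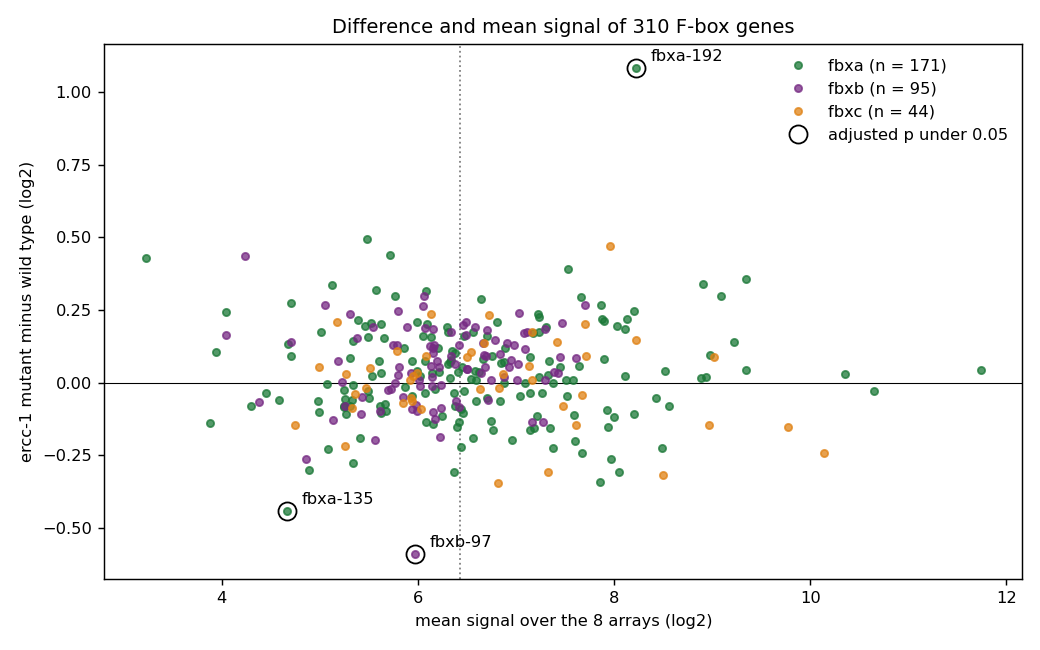
Log2 difference (mutant minus wild type) against mean log2 signal over the 8 arrays for the 310 members, coloured by subfamily, with the 3 calls circled. The dotted line marks 6.43, the bound of the dimmest 25% of genes; fbxb-97 and fbxa-135 lie to its left and fbxa-192 to its right.

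Over each subfamily the differences centred near those of all genes. The median log2 difference was 0.022 over the 171 fbxa genes, 0.062 over the 95 fbxb genes and 0.016 over the 44 fbxc genes, against 0.030 over all genes. Leaving out 1 array moved these medians to 0.0017 (without mutant replicate 3) to 0.048 (without wild-type replicate 3) in fbxa, to 0.038 (without wild-type replicate 2) to 0.109 (without mutant replicate 3) in fbxb, and to -0.028 (without mutant replicate 4) to 0.041 (without wild-type replicate 4) in fbxc. The middle of the distribution was narrow, with 276 of the 310 members (89.0%) within 0.25 of no difference, against 89.0% of all genes. In fbxb 70.5% of members lay above wild type, against 59.4% of all genes; in fbxa the share was 56.1% and in fbxc 54.5%. Centring each array on its median turned all these medians negative, to -0.068, -0.028 and -0.074, with that of all genes at -0.060, and left 42.1% of fbxb genes above wild type against 32.6% of all genes. The median of fbxb lay above that of all genes whichever array was left out, while fbxa passed from below to above it without mutant replicate 1, mutant replicate 2 or wild-type replicate 3, and fbxc without wild-type replicate 4.

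The share of fbxa genes with an unadjusted p under 0.05 was above that of all genes on both sides of wild type. There were 34 of 171 (19.9%), 21 higher and 13 lower, where 10.5% of all genes did so, 8.27% higher and 2.24% lower. In fbxb 11 of 95 did (11.6%), 10 of them higher and 1 lower, and in fbxc 6 of 44 (13.6%), 2 higher and 4 lower. These splits moved with the scaling of the arrays. In fbxa they became 13 higher and 16 lower after quantile normalization and 7 and 22 after median centring, each still above the share of all genes on that side. In fbxb they became 3 and 1, then 1 and 5, and the fbxb share fell below that of all genes, to 4.21% against 9.91% and to 6.32%, or 6 of 95, against 2060 of 17118 genes. In fbxc they became 1 and 6, then 1 and 8. The fbxa share stayed above that of all genes in each of the 16 alternative fits, from 15.2% to 33.3%, where the share of all genes ran up to 25.9%; this count was chosen after seeing the data, and no test of the whole subfamily was made. The 4 mutant values lay wholly above the 4 wild-type values in 16 members and wholly below in 13, which is 5.16% and 4.19% of the family, where 5.01% and 1.87% of all genes did so. By subfamily the counts above and below were 10 and 9 in fbxa, 4 and 1 in fbxb, and 2 and 3 in fbxc.

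**Figure D3:**
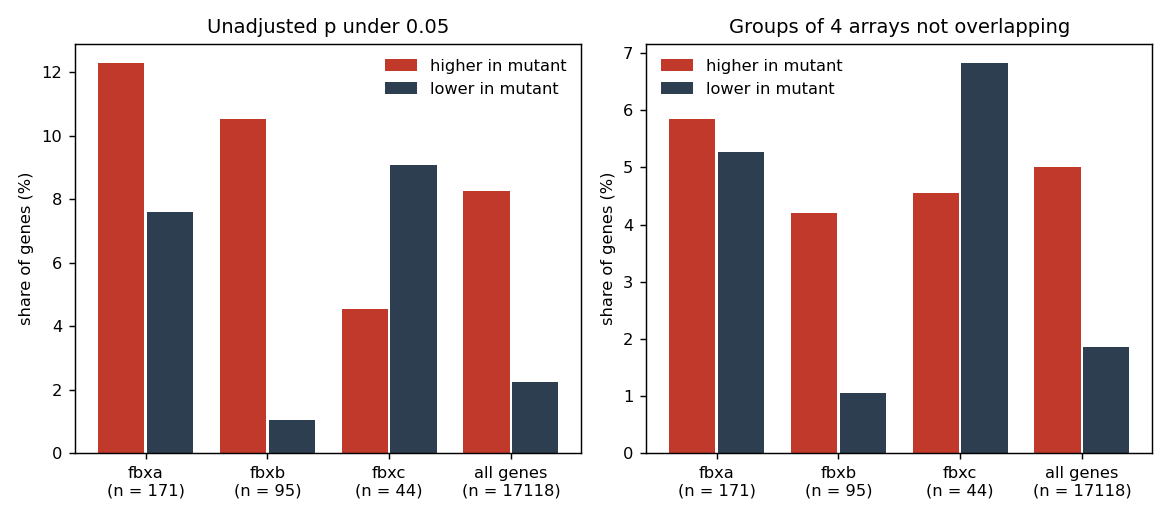
Share of genes (%) with an unadjusted p under 0.05 (left) and with 4 mutant arrays all on one side of the 4 wild-type arrays (right), for each subfamily and for all 17118 genes, split by direction. The share lower in the mutant is above that of all genes in fbxa and fbxc and below it in fbxb.

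Of the further fbxa members, fbxa-58 and fbxa-60, which lie on chromosome III, read higher and fbxa-153 read lower. The signal of fbxa-58, annotated as a pseudogene, was 5.86, 5.76, 6.06 and 6.07 on the mutant arrays and 5.52, 5.36, 5.67 and 5.44 on the wild-type arrays, without overlap (difference 0.44, SE 0.099, limma adjusted p = 0.113). That of fbxa-60 was 9.73, 9.52, 9.49 and 9.34 against 9.11, 9.14, 9.20 and 9.21 (0.36, SE 0.088, limma adjusted p = 0.160). Both are read by probe sets whose suffix _x_at marks possible matches to other transcripts. The fbxa-153 signal was 7.85, 8.01, 7.78 and 7.95 against 8.23, 8.24, 8.19 and 8.16 (-0.31, SE 0.072, limma adjusted p = 0.133), also without overlap. None of these 3 passed. One more member, fbxa-163, named after its values were seen, passed when mutant replicate 4 was left out (difference 0.69, limma adjusted p = 0.0166), and read 0.50 with all arrays (limma adjusted p = 0.391).

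In fbxb the 4 members next in p after fbxb-97 all read higher and none passed. The fbxb-33 signal was 4.40, 4.45, 4.54 and 4.44 on the mutant arrays and 4.30, 4.19, 3.71 and 3.88 on the wild-type arrays (difference 0.44, limma adjusted p = 0.232). The fbxb-90 signal was 7.69, 7.55, 7.53 and 7.53 against 7.42, 7.32, 7.41 and 7.33 (0.20, limma adjusted p = 0.329). Both kept their groups apart, while fbxb-79 (0.24, limma adjusted p = 0.290) and fbxb-108 (0.26, limma adjusted p = 0.383) each had 1 value shared by both groups.

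In fbxc 0 of 44 members passed in the limma fit, with 6 at an unadjusted p under 0.05. The smallest p belonged to fbxc-58, on chromosome IV, which read 8.25, 8.18, 8.05 and 8.31 on the mutant and 7.87, 7.90, 7.59 and 7.55 on the wild-type arrays (difference 0.47, SE 0.103, limma adjusted p = 0.105). The next were fbxc-36 and fbxc-33, on chromosome II. The fbxc-36 signal was 7.31, 7.22, 7.13 and 7.04 against 7.52, 7.54, 7.46 and 7.42 (-0.31, SE 0.077, limma adjusted p = 0.160). The fbxc-33 signal was 6.78, 6.70, 6.58 and 6.54 against 6.92, 6.92, 7.17 and 6.97 (-0.34, SE 0.087, limma adjusted p = 0.164). All 3 kept their groups apart. The fbxc-28 difference was 0.23 (limma adjusted p = 0.460) with overlapping groups.

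The brightest members did not pass, and those of fbxa had small differences. These were fbxa-215, fbxa-210 and fbxa-101, at 0.042, -0.030 and 0.030 (limma adjusted p from 0.907 to 0.944), with 95% confidence intervals between -0.17 and 0.20. In fbxb, beside fbxb-90, the brightest were fbxb-100 and fbxb-81 at 0.27 and 0.085 (limma adjusted p = 0.587 and 0.874). In fbxc they were fbxc-50, fbxc-47 and fbxc-45 at -0.24, -0.16 and 0.088 (limma adjusted p = 0.397, 0.587 and 0.832), and fbxc-50 was also among the 5 smallest p of its subfamily. A second, dimmer probe set of fbxc-50 read 0.098, on the other side of wild type.

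In all, 7 members had a second probe set and the brighter one stood for the gene. The mean signals of the pairs differed by as little as 7.17 against 7.14 for fbxc-51 and by as much as 10.14 against 6.50 for fbxc-50. The sign of the difference agreed in 5 of the 7 and was opposite in fbxc-50 and fbxa-214 (-0.12 and 0.17), and no second probe set passed. A RefSeq gene table (assembly WBcel235) lists 391 genes with these names, of which 81 had no probe set of their own here. The 22 probe sets that match several genes, at least 1 of them a member, were kept apart and not named; 0 of them passed in the limma fit, with 2 at an unadjusted p under 0.05 and differences from -0.29 to 0.27.

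That table marks 48 of the 310 members as pseudogenes, 36 of them in fbxa. In fbxa their median signal was 6.50, against 6.45 for the 135 protein-coding members. Their median difference was -0.038, with 33.3% above wild type, against 0.040 and 62.2% for the protein-coding fbxa genes. Of the 48 pseudogenes 0 passed in the limma fit and 7 had an unadjusted p under 0.05 (14.6%), all of them in fbxa, against 7.91% of all 872 pseudogenes and 10.5% of all genes. Whether the signal of a pseudogene's probe set comes from its own transcript or from a near relative is not known from these files.

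Most members sit beside relatives in the genome. The chromosome with most fbxa genes was V, with 74 of 171, while fbxb and fbxc genes were most often on II, with 51 of 95 and 38 of 44. In gene order 176 of the 310 (56.8%) had another fbx gene as a direct neighbour, and 168 had one of their own subfamily. Among the 107 neighbouring pairs in which both genes were measured, 46.7% had differences of the same sign and Pearson's r of the paired differences was -0.0007. Over the 105 pairs without fbxa-192 the share was 45.7% and r was -0.17. These values are given as a description across pairs that share genes and arrays. Of the 14 fbxa genes on the X chromosome 3 lay wholly below wild type (21.4%) and 0 wholly above, where 54 and 118 of all 2351 genes on that chromosome did so (1.87% and 5.01% over all chromosomes).

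The genes around fbxa-192 did not pass with it. Its neighbours fbxa-191 and fbxa-193, both pseudogenes, read 0.27 (SE 0.077) and 0.18 (SE 0.078), with limma adjusted p = 0.238 and 0.469. The fbxa-191 groups did not overlap; the gene was named by its place. The next members along the cluster, fbxa-129 and fbxa-108, read 0.14 and 0.015, and dgat-2 beyond them 0.31 (limma adjusted p = 0.300). Beside fbxb-97, fbxb-96 and fbxb-95 read 0.045 and 0.065, and math-39, which encodes a protein with a MATH domain, another class of ligase adapter, -0.18. Around fbxa-135 lie chemoreceptor genes: sri-7 and srh-258, its direct neighbours, read -0.12 and -0.19, and fbxa-199 read 0.080. Of the 30 genes within 5 places of these 3 members 24 were measured. In the limma fit 0 of the 24 passed, with 3 at an unadjusted p under 0.05, where 10.5% of all genes had such a p. Those 3 were fbxa-191, fbxa-193 and dgat-2, all of them near fbxa-192 and all higher in the mutant.

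**Figure D4:**
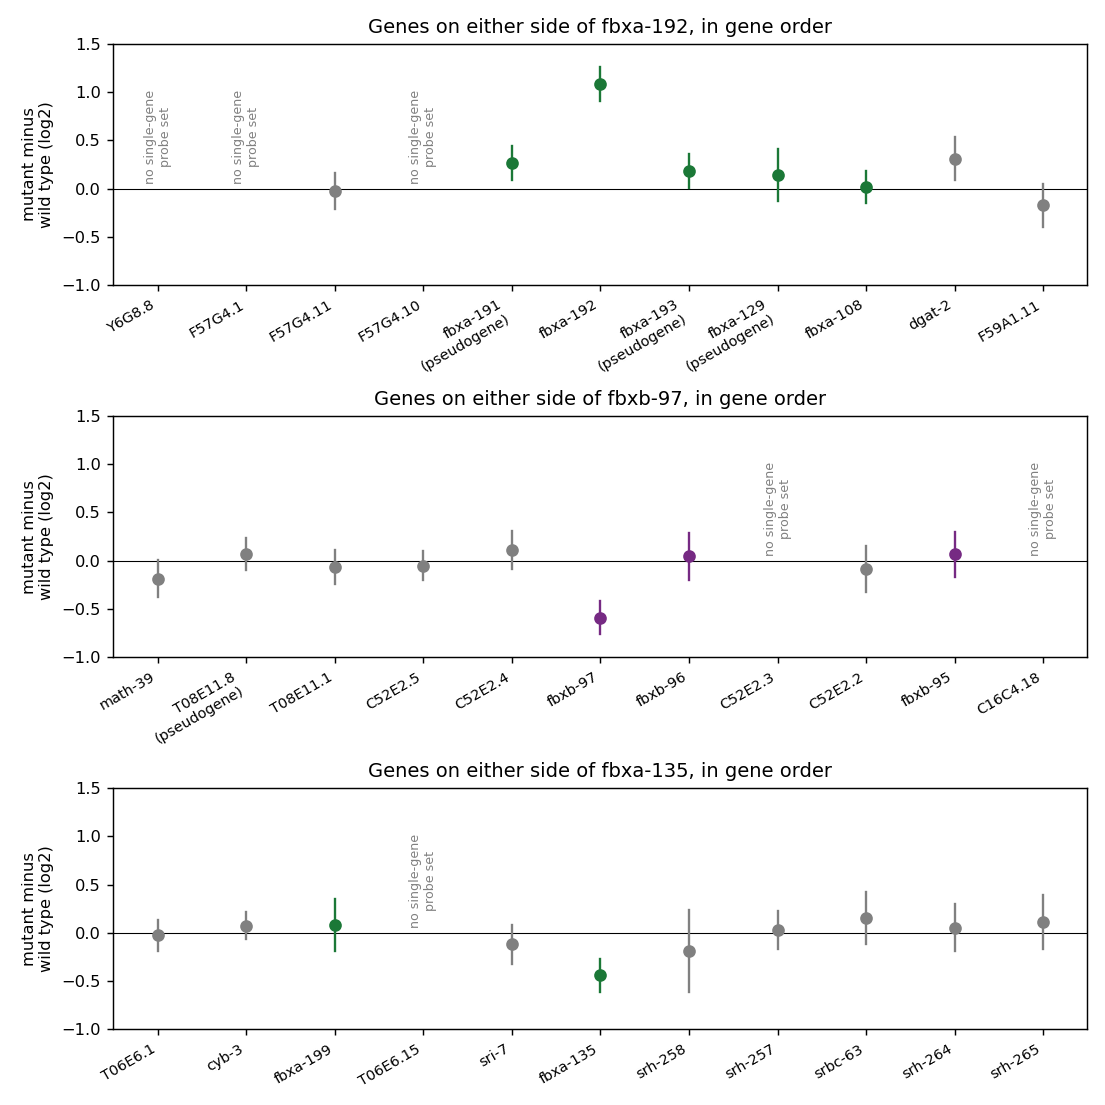
Log2 difference (mutant minus wild type, with 95% confidence intervals from the fit) of the measured genes among the 5 on each side of the 3 called members, in gene order on WBcel235 and not to scale. Green marks fbxa, purple fbxb and grey other genes; the direct neighbours have differences between -0.19 and 0.27, and the wide interval of srh-258 (-0.61 to 0.23) spans that of fbxa-135.

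Fbxa-158 and fbxa-75 were examined by name, since their products are known to act with the cullin CUL-6 and the Skp1-related proteins SKR-3, SKR-4 and SKR-5 in a ubiquitin ligase of the intracellular pathogen response. The fbxa-158 signal was 6.15, 5.68, 5.40 and 5.72 on the mutant and 5.26, 5.45, 5.52 and 5.44 on the wild-type arrays, with overlap (difference 0.32, SE 0.143, limma adjusted p = 0.509). The fbxa-75 signal was 3.76, 4.16, 3.70 and 4.36 against 4.11, 3.51, 4.04 and 3.90 (0.10, SE 0.175, limma adjusted p = 0.907). Leaving out mutant replicate 4 gave -0.017, and leaving out replicate 2 of wild type gave -0.022. The cul-6 signal was 8.40, 8.34, 8.23 and 8.27 against 7.98, 8.0, 8.05 and 7.93, with every mutant array above every wild-type array (0.32, SE 0.068, limma adjusted p = 0.0942), but it did not pass. In the list of 25 measured intracellular pathogen response genes 0 passed in the limma fit. An unadjusted p under 0.05 was found for 3 (12%, against 10.5% of all genes), all higher, and the median difference was 0.082. The mean signal of that list was 6.56 to 6.69 on the mutant arrays and 6.43 to 6.55 on the wild-type arrays, a gap of 0.0092. The groups overlapped after quantile normalization and after median centring, an alternative chosen after seeing the data, and centring took the difference of the means from 0.098 to 0.0076 and the median difference to -0.0075. The pals-32 and pals-26 genes, of the pals family that marks this response, were named for their small p. They read 0.35 and 0.38 (limma adjusted p = 0.269 and 0.344). Of the 25 genes of the list 16 had a higher mean in the mutant and 8 a lower one, among them pals-38 at -0.24 and pals-25 at -0.15.

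Of the SCF core and its neddylation cycle, which switches cullins on, 0 of 34 measured genes passed in the limma fit. At an unadjusted p under 0.05 there were 5 higher and 2 lower, and the median difference was 0.082 against 0.030 over all genes, or -0.0075 against -0.060 after median centring. The scaffold gene cul-1 read -0.055, the RING gene rbx-1 -0.088 and skr-1, the main Skp1 gene, 0.000. The Skp1-related genes skr-16 and skr-10 had the smallest p after cul-6. The skr-16 signal was 8.25, 8.26, 8.24 and 7.97 on the mutant and 8.59, 8.54, 8.72 and 8.47 on the wild-type arrays (-0.40, SE 0.091, limma adjusted p = 0.116), and that of skr-10 was 8.80, 8.73, 8.56 and 8.69 against 8.51, 8.38, 8.45 and 8.35 (0.27, SE 0.076, limma adjusted p = 0.216). In both the groups did not overlap.

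**Figure D5:**
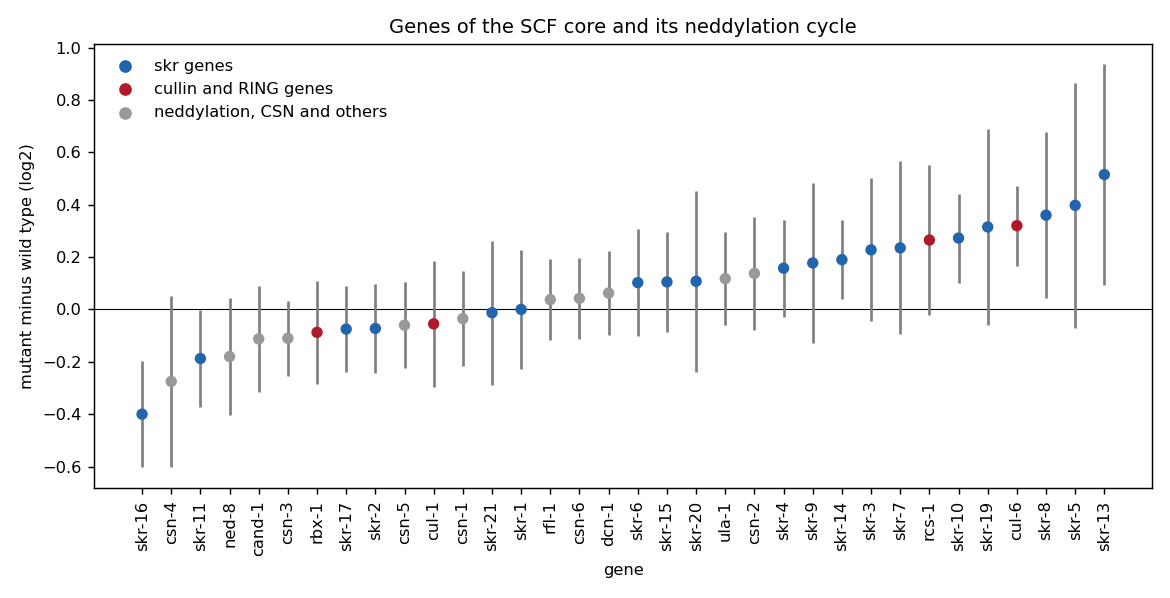
Log2 difference (mutant minus wild type, bars are 95% confidence intervals from the fit) of the 34 measured genes of the SCF core and its neddylation cycle, in order of the difference. None passed the test; cul-6 and skr-16 lie on opposite sides of 0 with intervals that do not reach it.

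Other ligase adapters and cullins were set beside them. Of 10 F-box genes outside the 3 subfamilies 0 passed in the limma fit and 0 had an unadjusted p under 0.05. Among these mec-15, which touch receptor neurons need, read -0.11, fbxl-1, an F-box gene with leucine-rich repeats, 0.21, and fsn-1, which acts at synapses, -0.072 (limma adjusted p from 0.700 to 0.795). Of 6 genes of the other cullin ligases 0 passed in the limma fit and 0 had an unadjusted p under 0.05, with cul-3, the cullin that takes BTB proteins as adapters, at -0.12, cul-2 at 0.092 and cul-4 at -0.085. In the MATH and BTB families, which also grew by duplication and supply adapters for cul-3, 1 of 103 fell (0.971%, against 0.14% of all genes). It was bath-39, at 7.36, 7.26, 7.29 and 7.26 on the mutant and 7.75, 7.81, 7.81 and 7.55 on the wild-type arrays (-0.44, SE 0.078, limma adjusted p = 0.0443). Leaving out any 1 array ended that call (adjusted p from 0.0584 to 0.183). The others named in that list, math-22 and btb-12, read -0.26 and 0.26 (limma adjusted p = 0.290 and 0.334), and the list's median was -0.035.

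The mutant arrays had median signals at or above those of the wild-type arrays. Medians over all probe sets ran from 7.44 to 7.59 in the mutant and from 7.39 to 7.44 in wild type, and correlations between arrays from 0.978 to 0.996. Centring the arrays on these medians turned the subfamily medians negative, as given above. The ercc-1 probe set read 9.84 ± 0.074 and 9.85 ± 0.124 (SD, n = 4 each), and since the allele and the place of the probes are not given, it does not check the labels. Marker genes of the main tissues were present in both groups, with mean signals of 10.3 to 11.4 for body wall muscle, 12.2 to 12.5 for yolk and intestine, 10.91 to 10.99 for oocyte and embryo and 7.63 to 8.04 for neurons, with larval and adult cuticle at 10.8 to 11.2. In the limma fit 0 of these genes passed, and 1, of body wall muscle, had an unadjusted p under 0.05. All 7 body wall muscle genes had a higher mean in the mutant (median difference 0.18), each with overlap of the groups. Sperm genes differed: 19 of 32 rose and 0 fell, all 32 had a higher mean in the mutant, 28 of them without overlap of the groups, and their mean signal was 10.5 to 11.2 on the mutant arrays, highest on replicate 4, against 9.64 to 9.88 on the wild-type arrays, with none at 0 on any array. All 19 that rose, msp genes and ssp-10, were read by probe sets of the suffix _x_at, as were 26 of the 32. The others were named after their values were seen. Of these, ssp-19 and ssp-16 read 0.58 and 0.47, without overlap of the groups (limma adjusted p = 0.277 and 0.292). The spe-41 gene read 0.19, and spe-9, spe-38 and fer-1 read 0.040, 0.032 and 0.028. Of 12 markers of males 1 rose, and their mean signal was 6.67 to 6.74 against 6.50 to 6.65. After quantile normalization 1 still passed in the limma fit, and the means stayed apart by 0.035. After median centring 0 passed in the limma fit, with 2 at an unadjusted p under 0.05, and the means overlapped. The fbxa-192 signal on mutant replicate 4, 8.74, lay within that of the other mutant arrays, and its difference was 1.09 without that array. The sperm genes' mean signal on the other mutant arrays, 10.55, 10.49 and 10.47, was also above wild type. Leaving out replicate 4 thus does not remove the sperm genes' difference. The part of the sperm genes' difference in the F-box values was not tested. In whole worms, fewer cells of a type and less RNA per cell cannot be told apart.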

How the data were processed

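The authors deposited 1 table of values made with Affymetrix Expression Console 1.1, per the submitters' processing notes, and these were taken as log2 values because they run from 0 to 14.38. No source states the log base. How probes were summarised is not given in the sources used here. Detection calls were not used. The platform annotation gave the gene of a probe set, and a RefSeq table (WBcel235) held the gene identifiers of 20701 of 20766 single-gene probe sets. That table served for names, gene type, chromosome and gene order only.

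The limma 3.58.1 fit (lmFit and eBayes, R 4.3.3) compared 4 arrays with 4 over all 22548 probe sets, with Benjamini-Hochberg adjustment, and was tested on simulated data. The members and lists were chosen with earlier results of these data known. Named are all called members, in each subfamily the 5 with the smallest p and the 3 with the highest mean, in each pathway list the 3 with the smallest p, fbxa-75 and fbxa-158, and neighbours by gene order. Lists are described by counts and medians. Normalization, filters, variance model, weights, a replicate block, the probe set rule and single arrays were varied as alternatives. The number of arrays limits the precision, and no sequences were used.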

Additional observations from a re-analysis of the deposited data

Results flagged for a closer look

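Among 82 groups of 4 arrays examined (the named genes and the subfamily medians), 2 held an array far from the other 3 by Dixon's test, where chance alone gives about 1 group in 20. In the mutant group fbxb-90 read 7.69 on replicate 1 and 7.53 to 7.55 on the others. In the same group skr-16 read 7.97 on replicate 4 and 8.24 to 8.26 on the others.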

How the results depend on the processing

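The call of fbxa-192 held in all 16 alternative fits. Members called lower numbered 1 (fbxb-97, with fbxa-135 lost) after quantile normalization, with a trended robust variance, with the replicate block and without _x_at and _s_at probe sets, and 0 without the dimmest 25% of probe sets, since both members that fell were left out there. Array weights gave 22 members higher and 9 lower, 57 fbxa genes with an unadjusted p under 0.05 and 12 calls in the pathway lists. Over all 17118 genes that fit called 946 higher and 197 lower, against 91 and 24 in the main fit. It put 25.9% of all genes at an unadjusted p under 0.05, against 33.3% of fbxa genes. Mutant replicate 2 had a weight of 5.05 in that fit, against 0.32 to 0.62 for the other mutant arrays. Without the dimmest probe sets 22 fbxa genes had an unadjusted p under 0.05, of 88 left (25%, against 11.8% of all genes left). Leaving out 1 array at a time gave 1 to 2 members called higher, 0 to 2 lower, 18 to 30 wholly above wild type and 14 to 20 wholly below. Of all genes, these fits called 23 to 170 higher and 3 to 27 lower. With 1 array fewer, groups separate more easily. The counts of members wholly above or below are not set beside all genes in these fits and are not read as a result about the family.

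Members wholly above and wholly below wild type numbered 10 and 20 after quantile normalization and 8 and 26 after median centring, and 7 lay wholly below without dim probe sets. The same counts over all genes are not given here, so these are not read as a result about the family. All genes moved too: the share lower at an unadjusted p under 0.05 went from 2.24% to 4.52% after quantile normalization and 8.53% after median centring. Median centring moved the medians to -0.0675 in fbxa, -0.0275 in fbxb and -0.07375 in fbxc. The single call in the pathway lists, bath-39, was lost (0 calls) with a trended robust variance, with the replicate block, without _x_at and _s_at probe sets and in every fit that left out 1 array; the cause was not tested. The alternatives for these lists and for the fbxa count at an unadjusted p were chosen after seeing the data.

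Small differences turned sign. After median centring fbxa-101 read -0.06, fbxa-215 -0.0475, fbxb-81 -0.005 and fbxc-45 -0.0025. After quantile normalization fbxa-215 read -0.0123 and fbxb-81 -0.0019. With array weights fbxa-210 read 0.0269, and through its other probe set fbxc-50 read 0.0975. Leaving out 1 array moved fbxa-75 between -0.022 and 0.203. Whether the replicate numbers pair the arrays is not known. Deviations of same-numbered arrays from their group means correlated at 0.473, 0.014, 0.040 and 0.201, and arrays of different numbers were not compared in this way. The replicate block left 1 member called higher and 1 lower.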

Other observations

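Within a subfamily the differences were not the same on every chromosome, though the groups of genes are small and no test was made. The 13 fbxa genes on chromosome I had a median log2 difference of -0.082 and the 14 on the X chromosome -0.086, against 0.036 for the 74 on chromosome V. All genes measured on these chromosomes had medians of 0.010, 0.055 and 0.035. The 9 fbxb genes on chromosome IV had a median of 0.17, with 88.9% above wild type, while all genes on that chromosome had a median of 0.042. The 38 fbxc genes on chromosome II had a median of 0.026, and all genes there 0.025. These values are descriptions of neighbouring and related genes on the same 8 arrays.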
